A study of Mus musculus with 5 samples.

Results

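The interleukin receptor genes were taken as the autosomal protein-coding mouse genes whose symbol is Il, a number and r, with or without further letters or numbers, leaving out Il7r. This gave 35 genes of the 20665 autosomal protein-coding genes of assembly GRCm38.p6. The rule takes genes by symbol alone and uses no measured value, though the members were chosen with earlier results of these data known. It also takes in Il1rn, which encodes a secreted antagonist of IL-1 and not a receptor. The mark studied was H3K27ac, an acetyl group on histone H3 (at lysine 27) that sits at active promoters and enhancers. ChIPmentation was used, in which Tn5 transposase tags the precipitated chromatin with sequencing adapters. The cells were CD45.2+ Lineage- Sca1+ Kit+ bone marrow cells, given the cell type HSC/MPP (stem cells and multipotent progenitors) in the labels. All 4 H3K27ac libraries and the 1 input library carry the genotype Mll3/4 deleted. The labels give neither strain, age, the Cre used for the deletion nor a count of mice.

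The deposited data were a single list of 22948 peaks for all H3K27ac libraries over the input. It holds no column for a single library, so no replicate error could be given, no test was made, and whether deletion of Mll3 and Mll4 raised or lowered any peak was not measured. Read depth is unknown. The values quoted for a peak are the authors': the signal value, read as the ratio of H3K27ac to background, and −log10 q, the strength of the call after correction for many calls. A gene without a peak had no region that passed the authors' calling, which does not show that acetylation was absent. An end of a gene had a peak when a peak reached within 1 kb of it. A distal peak had its summit over 1 kb from every protein-coding gene end, and was counted for a gene when the summit lay within 50 kb of an end of that gene.

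The markers listed for the labelled cell type were covered in part. The marker lists were chosen with earlier results of these data known. Of 10 stem and progenitor genes, 5 had a peak at an end (Meis1, Runx1, Flt3, Kit and Slamf1), with strongest signal values from 3.21 to 12.2. Ly6a, the gene of the sorting antigen Sca1, had none at an end and 3 distal peaks. Cd34 had none at an end and 1 distal peak, and Mecom, Hlf and Procr had neither kind. Of 8 B-lineage genes, 8 had a peak at an end, with signal values from 2.69 at Cd79b to 13.6 at Blnk. The count at ends was 1 of 8 for T-cell genes (Cd3d, 4.90), 0 of 8 for myeloid and 0 of 5 for mast cell and basophil genes. It was 0 of 6 for erythroid and megakaryocyte and 0 of 5 for non-blood genes. Distal peaks were counted for 7 of the stem and progenitor genes, 8 of the B-lineage and 2 of the T-cell genes. They were also counted for 3 myeloid, 1 mast cell and basophil, 2 erythroid and megakaryocyte and 0 non-blood genes. Over all autosomal protein-coding genes, the share was 37.4% for peaks at ends and 45.9% for distal peaks. The part that B-lineage chromatin has in the receptor peaks described here was not tested.

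Interleukin receptors are surface proteins, mostly made of a chain that binds 1 cytokine and a chain shared by several. Those of the cytokine receptor superfamily pass the signal to JAK kinases and STAT factors. The IL-1 and IL-17 receptors use adaptor proteins that lead to NF-kB. In marrow, IL-3 promotes the growth of early progenitors, and IL-7 that of lymphoid progenitors.

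Of the 35 receptor genes, 14 (40.0%) had an H3K27ac peak at an end, against 37.4% of all autosomal protein-coding genes, so the receptor genes lay near the background. The 14 were Il3ra, Il21r, Il15ra, Il4ra, Il10rb, Il27ra, Il17rc, Il17ra, Il18r1, Il1rl2, Il2rb, Il1rap, Il11ra1 and Il20rb, in falling order of signal value. With −log10 q of at least 5, 8 (22.9%) were left, against 24.95% of all autosomal genes. The strongest signal value at an end ran from 2.44 at Il20rb to 10.8 at Il3ra. Its median over the 14 genes was 4.22, against 4.74 (interquartile range 3.52 to 6.58) over the 7733 autosomal genes with such a peak. Distal peaks lay within 50 kb of 24 receptor genes (68.6%), against 45.9% of all autosomal genes. The receptor genes were longer, with a median of 28.8 kb against 17.5 kb, and the part of gene length in the number of distal peaks was not tested. Fewer receptor genes, 15 (42.9%), had a distal peak inside them or nearer to them than to any other gene. The share of all autosomal genes was lower too, at 22.9%. A further 7 receptor genes (20.0%) had neither kind of peak, against 40.6%: Il6ra, Il11ra2, Il23r, Il31ra, Il9r, Il17rd and Il17re. The genes with distal peaks alone numbered 14. These differences shrank or turned in the stricter lists. With −log10 q of at least 5, 31.4% of receptor genes had a distal peak, against 24.0% of all autosomal genes. Neither kind was then found at 57.1%, against 60.7%. With signal values of 4 or more, the distal share lay near the background, at 20% against 22.6% of all autosomal genes. In that list 68.6% had neither kind, against 62.1%.

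**Figure D1:**
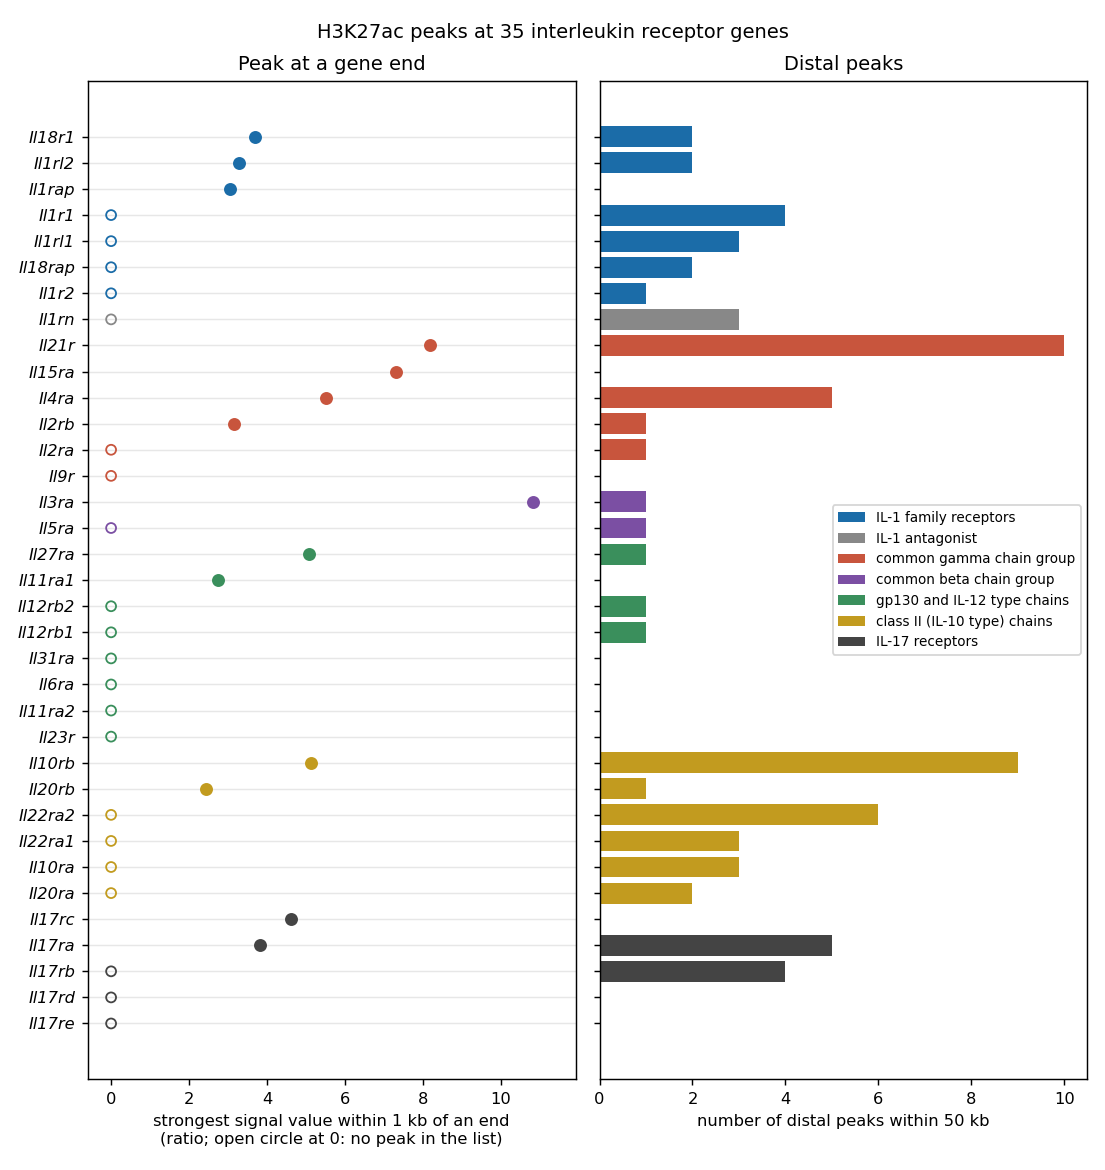
Each row is a receptor gene, coloured and grouped by role. The left panel gives the strongest signal value (ratio) of a peak within 1 kb of an end, with an open circle at 0 where the list has no such peak, and the right panel the number of distal peaks within 50 kb. Il3ra, at 10.8, lies farthest right on the left panel, and Il21r, Il10rb and Il22ra2 have 10, 9 and 6 distal peaks, the 3 highest numbers.

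For 28 of the 35 genes the RefSeq table of GRCm38.p6 promoters gives a start and strand. Il17ra, Il12rb1, Il27ra, Il10ra, Il22ra2, Il2rb and Il10rb have no entry there. Of the 10 genes with an entry and a peak at an end, 7 had it at the end where transcription starts (Il3ra, Il15ra, Il4ra, Il18r1, Il1rl2, Il1rap and Il11ra1), and 3 had it at the opposite end (Il21r, Il17rc and Il20rb). A promoter window reaches from 250 bases before to 50 bases after a start. A peak lay over a window at 6 of the 28 genes (21.4%), against 27.7% of the autosomal genes with an entry: Il3ra, Il15ra, Il4ra, Il1r1, Il1rl2 and Il1rap. Il1r1 had no peak at an end and is among them through the first of its 2 listed starts, which lies 2.6 kb inside the gene.

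The windows of 5 genes are printed to set acetylated starts beside starts without a peak. They are those with the strongest overlapping peak in each role group that had any in the table (Il3ra, Il15ra and Il1r1). The others are those of Il5ra, which pairs with the same shared chain as Il3ra, and of Il6ra. The last pair was chosen after its values were seen. Of the 28 genes, 6 have several listed starts, and for Il15ra and Il1r1 the first of 2 is printed. The windows are Il3ra on chromosome 14 from 14346245 to 14346544 (plus strand), Il15ra on chromosome 2 from 11705043 to 11705342 (plus), Il1r1 on chromosome 1 from 40224830 to 40225129 (plus), Il5ra on chromosome 6 from 106748988 to 106749287 (minus) and Il6ra on chromosome 3 from 89913147 to 89913446 (minus). Each runs 5′ to 3′ along its gene, from RefSeq, GRCm38.p6. Capitals mark matches on either strand to the motifs named in the next paragraph.
Il3ra: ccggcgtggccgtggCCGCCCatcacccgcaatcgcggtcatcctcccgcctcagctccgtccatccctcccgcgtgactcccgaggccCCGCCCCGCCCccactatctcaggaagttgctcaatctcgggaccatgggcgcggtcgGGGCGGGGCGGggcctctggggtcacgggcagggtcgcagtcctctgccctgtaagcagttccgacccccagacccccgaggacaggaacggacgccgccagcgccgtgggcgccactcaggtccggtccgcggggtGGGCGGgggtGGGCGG
Il15ra: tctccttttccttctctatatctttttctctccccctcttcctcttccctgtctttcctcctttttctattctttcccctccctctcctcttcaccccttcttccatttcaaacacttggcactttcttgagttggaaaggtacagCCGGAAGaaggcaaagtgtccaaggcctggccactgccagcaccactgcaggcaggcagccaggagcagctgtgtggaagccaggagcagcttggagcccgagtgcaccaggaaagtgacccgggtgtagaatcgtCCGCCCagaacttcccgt
Il1r1: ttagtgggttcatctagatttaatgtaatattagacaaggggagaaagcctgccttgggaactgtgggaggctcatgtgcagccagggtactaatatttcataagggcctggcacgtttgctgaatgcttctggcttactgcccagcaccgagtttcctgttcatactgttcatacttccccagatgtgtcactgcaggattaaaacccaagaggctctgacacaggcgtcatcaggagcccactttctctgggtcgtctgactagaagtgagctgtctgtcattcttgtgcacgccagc
Il5ra: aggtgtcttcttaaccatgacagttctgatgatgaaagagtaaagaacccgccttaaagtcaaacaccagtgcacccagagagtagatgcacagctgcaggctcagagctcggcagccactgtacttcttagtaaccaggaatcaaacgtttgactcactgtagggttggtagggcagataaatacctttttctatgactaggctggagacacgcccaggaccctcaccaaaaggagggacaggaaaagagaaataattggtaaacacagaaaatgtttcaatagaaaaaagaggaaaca
Il6ra: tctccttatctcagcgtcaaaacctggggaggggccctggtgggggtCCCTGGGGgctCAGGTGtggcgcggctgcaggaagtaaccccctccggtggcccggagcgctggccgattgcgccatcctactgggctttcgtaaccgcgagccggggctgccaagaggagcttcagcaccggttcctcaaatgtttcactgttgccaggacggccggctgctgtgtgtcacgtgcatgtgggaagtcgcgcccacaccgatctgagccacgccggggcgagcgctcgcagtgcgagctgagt

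The Il3ra window, under the strongest receptor peak, held 35 CpG dinucleotides and 7 GC boxes (GGGCGG). The printed Il15ra window had 6 CpG, 1 GC box and 1 ETS match (CCGGAAG), which lies 104 bases before the start. A second listed start of Il15ra, under the same peak, had 15 CpG, no GC box, no ETS match and 1 E protein match. The printed Il1r1 window had 5 CpG and no match. The window of the second start of Il1r1, 44.1 kb inside the gene, had no peak over it although it held 14 CpG, 3 GC boxes and 1 EBF match. The Il5ra window, without a peak, had 4 CpG and no match. The Il6ra window had no peak either, although it held 25 CpG, as many as that of Il4ra, with 1 E protein match (CAGGTG) and 1 EBF match (CCCNNGGG). Of all 20085 autosomal windows, 47.0% held a GC box, 11.9% the ETS motif, 20.0% the E protein motif and 16.0% the EBF motif. Also searched on both strands were STAT (TTCNNNGAA), PU.1 (GAGGAAGT), RUNX (TGTGGT) and TATA box (TATAAA), held by 7.78%, 3.18%, 14.8% and 12.7% of all windows. Matches to different motifs did not overlap in the printed windows, while neighbouring GC boxes at Il3ra shared a base. Among the 36 windows of receptor genes, those with a GC box numbered 15 (41.7%), ETS 3, E protein 6, EBF 6, STAT 4, PU.1 1, RUNX 7 and TATA 2. A match is a stretch of letters and does not show binding.

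CpG number followed the same order in receptor genes as in all genes. The 7 receptor windows under a peak had a median of 15 CpG (range 3 to 35), and the 29 without had a median of 5 (range 1 to 32). Over all autosomal windows the medians were 22 under a peak and 8 without. The ranges of the receptor windows overlap almost whole: Il17rb (32 CpG) and Il6ra (25) had no peak, and Il1rl2 (3) had one.

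**Figure D2:**
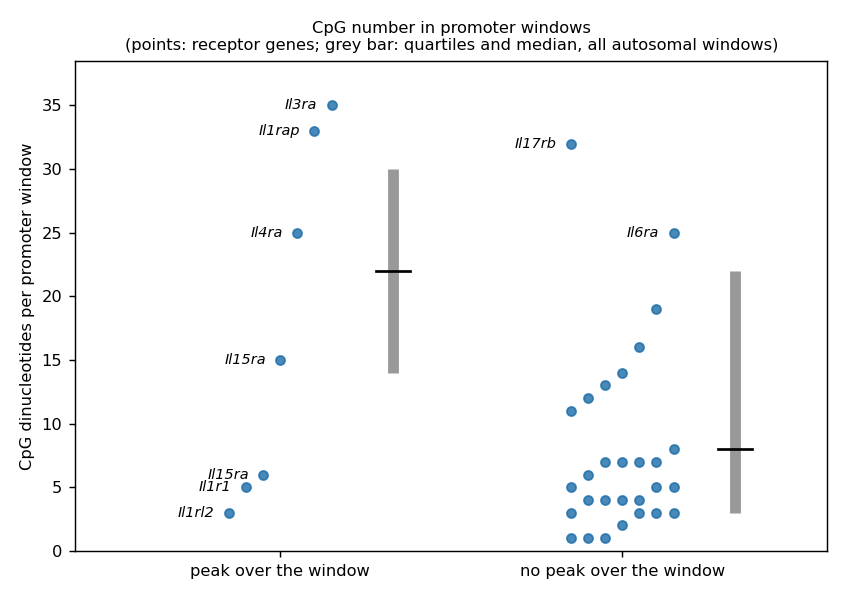
Number of CpG dinucleotides in each promoter window of a receptor gene, split by whether a peak lay over the window; grey bars and black lines give the quartiles and median of all autosomal windows. Il3ra and Il1rap sit highest under a peak, with 35 and 33 CpG, while Il17rb and Il6ra reach 32 and 25 without one.

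The common beta chain, encoded by Csf2rb, pairs with Il3ra and Il5ra. Il3ra encodes the IL-3 binding chain, and its peak on chromosome 14 from 14345907 to 14347249 covered the whole promoter window. Its signal value was 10.8 and its −log10 q 39.6, which stands at percentile 96.0 of the autosomal genes with a peak at an end. A second, weaker peak lay inside the gene, 4.2 kb from its low end (signal value 2.997, −log10 q 2.16). Il5ra encodes the IL-5 binding chain and had no peak at an end. The single distal peak within reach of Il5ra was strong, at 11.96, but lay inside Crbn, 45.1 kb away. Csf2rb and its mouse copy Csf2rb2 had neither kind of peak, while Csf2ra, which pairs with the same chain to bind GM-CSF, had a signal value of 9.12 at an end.

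**Figure D3:**
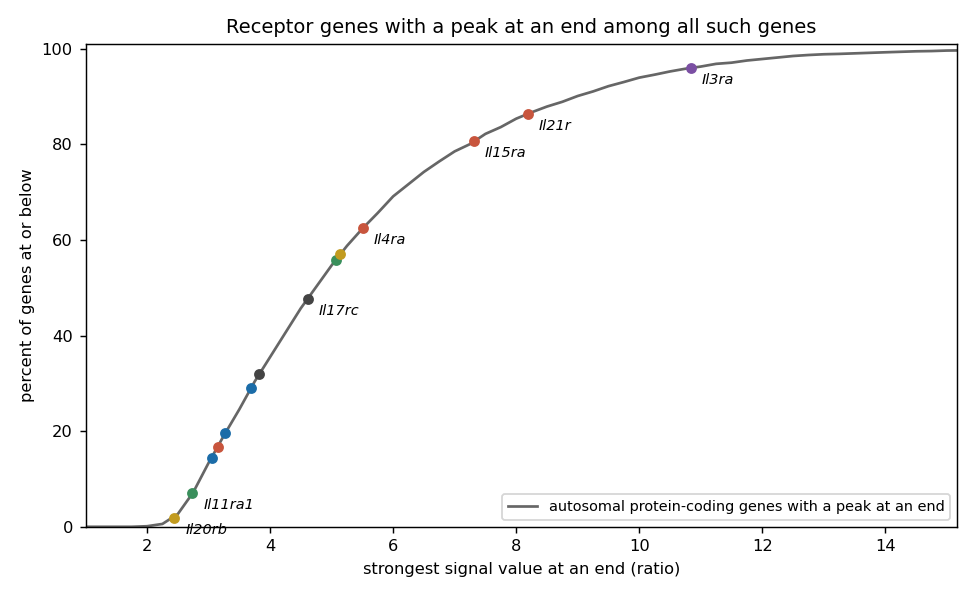
The line gives the percent of autosomal protein-coding genes with a peak at an end whose strongest signal value (ratio) is at or below the value on the horizontal axis, and each point is a receptor gene at its percentile, coloured by role as in the plot of all receptor genes. Il3ra, Il21r and Il15ra lie at percentiles 96.0, 86.3 and 80.7, and Il20rb at 1.87.

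Receptors of the common gamma chain group had the most members with a peak at an end, 4 of 6, against 37.4% of all autosomal genes. Il2rb was lost from these at −log10 q of at least 5. With distal peaks counted too, 1 member had neither kind, against 0 in the IL-1 family and class II groups. Over all autosomal genes, 40.6% had neither kind. The common gamma chain itself, Il2rg, is X-linked and so outside the rule. It had a peak at its high end with a signal value of 4.02. Il15ra, which presents IL-15, had a peak over its start on chromosome 2 from 11705173 to 11706866, at a signal value of 7.31 (−log10 q 19.7). The neighbouring Il2ra, the high-affinity IL-2 chain (CD25), ends 12.0 kb away and had no peak at an end, only a distal peak 5.5 kb outside its low end (2.57, −log10 q 1.22, a q-value above 0.05). Il2rb, the chain shared by IL-2 and IL-15, had a peak of 3.15 near its high end, with the summit 1030 bp from that end. Il9r had neither kind of peak.

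Il4ra, which binds IL-4 and takes part in the IL-13 receptor, and Il21r lie side by side on chromosome 7, 23.8 kb apart. At Il4ra a peak 4756 bp wide, from 125552236 to 125556991, covered the start, at a signal value of 5.51 (−log10 q 11.3). A run of 4 narrow peaks followed inside the gene, 7.0 to 10.7 kb from the start, with signal values from 2.25 to 2.91. Those with −log10 q of 0.69 and 0.80 had a q-value above 0.05. At Il21r the acetylation lay at the other side of the gene. Its start had no peak, and a peak 3864 bp wide, from 125630587 to 125634450, ended just past the high end of the gene at a signal value of 8.19 (−log10 q 26.7). It was flanked inside the gene by peaks of 3.55 and 4.11 and outside it by a peak of 4.16. Of the 10 distal peaks counted for Il21r, 3 lay inside it, 4 inside Il4ra and 3 nearer to Gtf3c1.

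**Figure D4:**
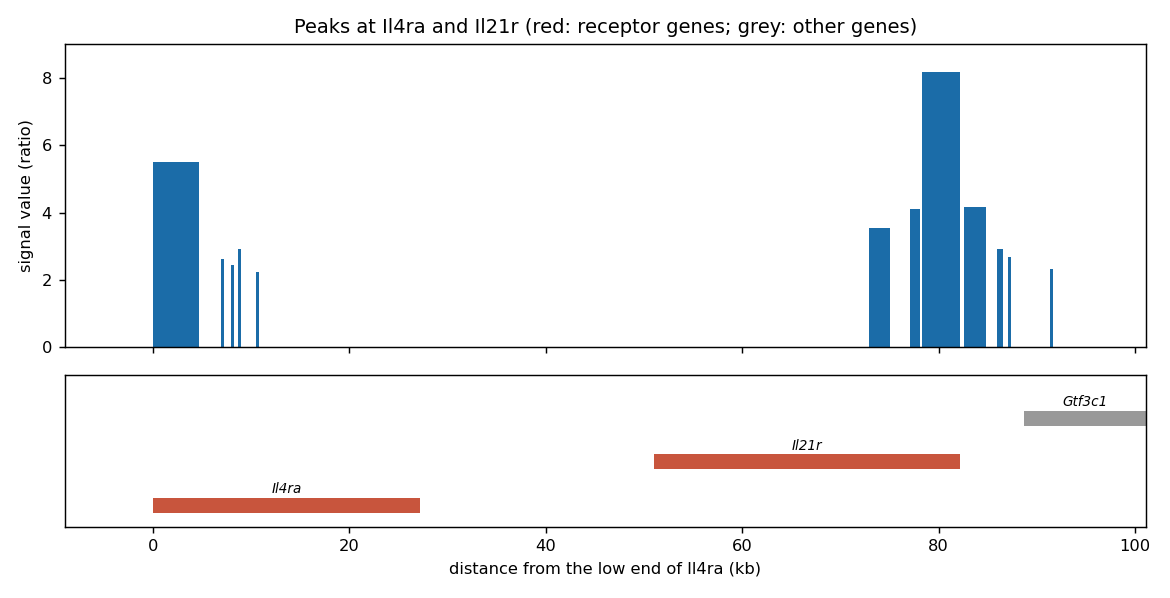
Peaks around Il4ra and Il21r, drawn at their width, with signal value (ratio) on the vertical axis and distance from the low end of Il4ra in kb on the horizontal axis; the lower strip gives the genes, which are transcribed left to right for the receptor pair. The peak at the start of Il4ra reaches 5.51 and the block at the right end of Il21r 8.19, with none over the start of Il21r.

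Among the gp130 and IL-12 type chains, 2 of 8 had a peak at an end and 4 had neither kind. The shares over all autosomal genes were 37.4% and 40.6%. Il27ra, the IL-27 receptor chain, had a peak of 5.08 (−log10 q 9.80) on chromosome 8 from 84041879 to 84043577, at its high end. The same peak also reached an end of Rln3, so it cannot be assigned to either gene. Il11ra1, the IL-11 binding chain, had a weak peak of 2.74 (−log10 q 1.79) inside the gene, 419 bp from its start. Il11ra2, a close copy of it, had neither kind. Both are uncertain, since how the authors' alignment treated reads that match both copies is not given in the sources used here. Il6ra, Il23r and Il31ra had neither kind. Il12rb1 and Il12rb2, which together form the IL-12 receptor, had no peak at an end. Their single distal peaks, of 3.70 and 2.57, lay inside Mast3 and Serbp1. The peak of 2.57 had a q-value above 0.05 (−log10 q 1.22). Il6st, the gene of the shared chain gp130, had no peak at an end and 3 distal peaks.

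The IL-1 family receptors form a cluster on chromosome 1 from 40084692 to 40551707, where Il1r2, Il1r1, Il1rl2, Il1rl1, Il18r1 and Il18rap follow each other with no other protein-coding gene between them. The cluster of 467 kb held 9 summits, all between 2.48 and 3.71 in signal value. Il1r1, the signalling IL-1 receptor, held 4 of them. Its peaks of 3.15 and 3.70 lay 1.6 and 2.7 kb inside the low end, the second over its first listed start, and the other 2 (3.33 and 3.71) lay 39.9 kb from the low end and 31.4 kb from the high end. Il1rl2, the IL-36 receptor, had a peak of 3.27 over its start. Il18r1, the IL-18 binding chain, had peaks of 3.69 and 3.21 just inside its low end, where it starts, with summits 2236 and 3506 bp from that end. Il1rl1, the IL-33 receptor (ST2), ends next to Il18r1, and its distal peaks lay inside Il18r1 or next to Il1rl2. Il18rap, the second IL-18 chain, reached the same Il18r1 peaks from 46.3 and 47.6 kb away and had none of its own. Il1r2, the decoy receptor, had a single distal peak of 2.48, with a q-value above 0.05.

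**Figure D5:**
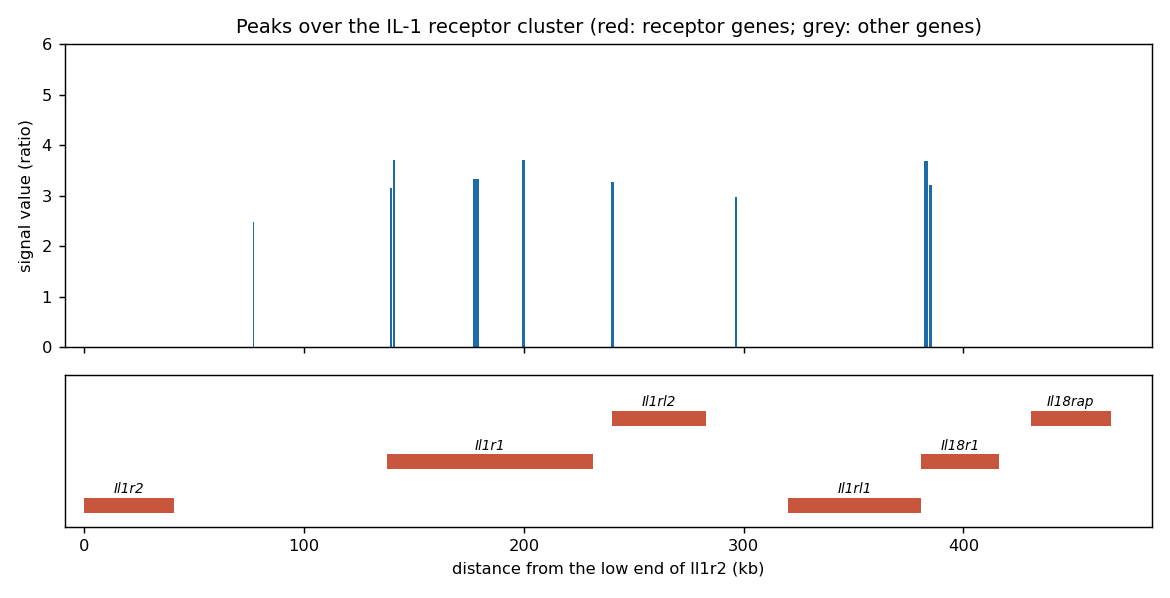
Peaks over the cluster of 6 IL-1 family receptor genes, with signal value (ratio) on the vertical axis and distance from the low end of Il1r2 in kb on the horizontal axis; the lower strip gives the genes. All 9 peaks lie between 2.48 and 3.71, with none inside Il1r2, Il1rl1 or Il18rap.

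Il1rap, the accessory chain of the IL-1, IL-33 and IL-36 receptors, lies apart from this cluster on chromosome 16. It had a narrow peak of 3.06 (408 bp wide, −log10 q 2.68) at its start. Il1rn, the antagonist caught by the symbol rule, had no peak at an end. The strongest of its 3 distal peaks, of 6.09, lay 35.3 kb away inside Psd4.

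Of the class II chains, which serve IL-10, IL-20 and IL-22, 2 of 6 had a peak at an end and 6 of 6 had a distal peak. The shares over all autosomal genes were 37.4% and 45.9%, and many of these distal peaks lay nearer to other genes. Il10rb, the chain shared by several of these receptors, had a peak of 5.14 (−log10 q 9.80) on chromosome 16 from 91405074 to 91407900 at its low end, which also reached an end of Ifnar2. Inside Il10rb, 3 further peaks followed with signal values of 2.997, 3.00 and 4.71. A group of 6 lay beyond its high end towards Ifnar1, the strongest at 6.46, and of these 5 were nearer to Ifnar1. Those in the group with −log10 q of 0.40, 0.80 and 1.22 had a q-value above 0.05. Il10ra, the IL-10 binding chain, had no peak at an end and 3 distal peaks of 2.72, 3.49 and 3.52, none inside it. Il20rb had a weak peak at its far end (2.44, −log10 q 1.45). The single distal peak of Il20rb, of 2.28, lay inside it and had a q-value above 0.05 (−log10 q 0.82). Il22ra1 had 3 distal peaks, all nearer to Ifnlr1. Il20ra and Il22ra2 lie 77.0 kb apart on chromosome 10. The space between them held 5 summits, the strongest, at 7.19 (−log10 q 19.7), 19.3 kb outside the low end of Il20ra. On the other side of Il22ra2, peaks of 3.55 and 4.80 were nearer to Ifngr1.

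IL-17 receptors had a peak at an end in 2 of 5 cases, against 37.4% of all autosomal genes. Il17ra, the chain used by several IL-17 cytokines, held a row of 5 peaks with summits 1.7 to 9.9 kb inside its low end and signal values from 2.78 to 3.82. The first of these, on chromosome 6 from 120463387 to 120465863, reached the window of that end, with its summit 1735 bp from the end. At Il17rc, which pairs with Il17ra to bind IL-17A, peaks of 4.61 and 3.61 lay at the end opposite its start. Both also reached an end of Creld1, and the start of Il17rc had none. Il17re, whose high end lies 697 bp from Il17rc, had neither kind, as did Il17rd. Il17rb, part of the IL-25 receptor, had no peak at an end, and its 4 distal peaks lay inside Chdh.

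The receptor genes shared many of these peaks. At ends they had 16 peaks, of which 4 also reached an end of another gene (at Il27ra, at Il10rb and both at Il17rc). The distal peaks numbered 60, of which 24 lay inside a receptor gene and 34 had a receptor gene end as the nearest gene end. Of the 60, 10 were counted for more than 1 receptor gene and 14 had a q-value above 0.05, not each of them marked above. Their median signal value was 3.12, against 2.97 for all distal peaks of the list. At Il18r1, Il17ra, Il21r and Il2rb, a peak at an end had its summit over 1 kb from it and was also counted as distal.

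Put together by receptor, 5 of 25 receptor complexes had a peak at an end of every chain: those of IL-36 (Il1rl2 and Il1rap), IL-15 (Il15ra, Il2rb and Il2rg), IL-4 type I (Il4ra and Il2rg), IL-21 (Il21r and Il2rg) and IL-17A (Il17ra and Il17rc). Some but not all chains had such a peak in 15, among them the receptors of IL-3 (Il3ra without Csf2rb), IL-10 (Il10rb without Il10ra), IL-27 (Il27ra without Il6st) and IL-18 (Il18r1 without Il18rap). No chain had one in 5, the receptors of IL-5, IL-6, IL-12, IL-23 and IL-31. Chains shared between receptors were counted in each, so these complexes are not independent of each other. They were chosen with earlier results of these data known, and no share was worked out for other sets of genes. Single autosomal genes had a peak at an end in 37.4% of cases. Il1rl2, Il1rap, Il2rb and Il17ra lost theirs at −log10 q of at least 5. The receptors of IL-36, IL-15 and IL-17A then no longer had one at every chain. Il2rg lies outside the rule and was not followed at that threshold, so this is left unstated for IL-4 type I and IL-21. The peaks of Il21r and Il17rc lay opposite the start, and those of Il17rc also reached Creld1. Outside the rule, Il7r had a signal value of 11.2 at its high end, above that of Il3ra, and 10 distal peaks. The X-linked Il13ra1, Il13ra2, Il1rapl1 and Il1rapl2 had neither kind.

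Genes acting downstream of the receptors, and their ligands, were counted in the same way, beside the 37.4% of all autosomal genes. These lists too were chosen with earlier results of these data known. All 10 IL-1 and IL-17 adaptors had a peak at an end, from Irak4 (3.33) to Traf3ip2 (7.93), the adaptor Act1 of IL-17 receptors. Of the JAK kinases and STAT factors 8 of 11 did, the strongest being Stat6 (10.7), which acts after IL-4 and IL-13, Stat3 (9.80) and Jak1 (7.81). Stat5a and Stat5b lie side by side, and each had a single end peak, of 2.45, at the end facing the other. A peak there cannot be assigned to either gene, and both genes were counted in the 8. Jak3, Tyk2 and Stat4 had none at an end. Of the negative regulators 9 of 13 did, among them Socs1 (5.42) and Socs2 (5.39), while Socs3 and Cish did not. Of 9 shared chains outside the rule, 3 did: Csf2ra, Crlf2 (7.10), part of the TSLP receptor, and Ifnlr1 (2.84). Of the 33 ligands, 3 (9.09%) had a peak at an end, Il12a (12.1), Il7 (6.49) and Il15 (3.70). The strongest distal peak counted for Il12a had the same signal value as its peak at an end. Neither kind was found at 20 ligands, against 40.6% of all autosomal genes.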

How the data were processed

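One deposited list of H3K27ac peaks over input was used, in narrowPeak layout with no header. The submitters' processing notes name BWA, MACS2 and the build mm10, without roles or versions, and filters are not given in the sources used here. The authors' values in the list are a score, an enrichment ratio (the signal value), −log10 p-values and −log10 q-values and the summit offset. The score was not used for any result. Values were read as deposited, only to describe or filter peaks within the list. Replicates share a single list, so there was no test.

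Gene positions came from the RefSeq table of GRCm38.p6, which shares coordinates with mm10. It holds no exons, so exon, intron and UTR were not assigned. Coordinates are 1-based. Low and high end mean the lower and higher coordinate. Peaks were assigned by summit (distal, 50 kb) or overlap (ends, 1 kb). Nearest genes were taken by gene end. Counting was checked on planted peaks, with Python 3.11.15 and pandas 2.3.3. Every receptor gene was described, and promoters were printed by role group. The members, gene lists, receptor complexes and motifs were chosen with earlier results of these data known. The alternatives were stricter peak lists, merged peaks, other windows and distances, starts only, and nearest-gene assignment. Leaving distal peaks at ends out was added after the data were seen.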

Additional observations from a re-analysis of the deposited data

How the results depend on the processing

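Of 37 recomputed values, 24 were within 1.5 times of the value reported and 13 were not. Stricter lists had the widest reach. Held to −log10 q of at least 5, the receptor genes numbered 8 with a peak at an end, 11 with a distal peak and 20 with neither, and the median number of distal peaks was 0. The distal share was then 31.4% against 24.0% of all autosomal genes, and the share with neither 57.1% against 60.7%. Genes with a peak at an end that were lost were Il17ra, Il1rl2, Il2rb, Il1rap, Il11ra1 and Il20rb. Held to signal values of 4 or more, the counts were 7, 7 and 24 and the median 0, and Il18r1 was lost as well. Here the shares crossed to the other side of the background but lay near it: 20% against 22.6% had a distal peak and 68.6% against 62.1% had neither. With starts only, 8 of 28 genes (28.6%) had a peak within 1 kb of a start, against 39.3% of autosomal genes with an entry, a lower share than the background. This also leaves out 7 receptor genes with no entry, of which 4 had a peak at an end, and of the 28 with an entry 10 (35.7%) had a peak at either end, against 38.4%. Within 100 kb, 4 (11.4%) had neither kind of peak, against 30.7%, and the median was 3, against 1. With nearest-gene assignment, 15 had a distal peak and the median was 0, in place of 24 and 1. Neither kind was then found at 42.9%, against 53.1% of all autosomal genes. With a window of 2.5 kb, 16 had a peak at an end (45.7%, against 40.6%), Il1r1 and Il1rl1 being added. By summit position, 11 had a peak at an end, against 34.4% of all autosomal genes. The strongest signal value at an end stayed 10.8 at Il3ra in each stricter list. Counts over the list have no replicate error, the depth is unknown, and no library could be left out of a pooled list. No paired analysis was possible because replicates are pooled.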
